A study of Mus musculus with 10 samples.

Results

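The 6 genes described here make, store, recover and break down GABA, the main inhibitory transmitter of the cerebellum. They were taken by name: *Gad1* and *Gad2* for synthesis, *Slc32a1* for loading into synaptic vesicles, *Slc6a11* for uptake from the extracellular space, and *Abat* and *Aldh5a1* for breakdown. They are 6 of the 53447 genes listed in the deposited expression tables, and all 6 passed the filter on low values that left 17168 genes for testing. RNA was sequenced from cerebella of 5 *Dscam* del17/del17 mutants (DscamKO) and 5 littermate controls (Control) at postnatal day 21, with 1 library per mouse, so the replicates are separate animals. The del17 allele is a spontaneous loss of 38 bases in exon 17 of *Dscam*, which encodes a cell adhesion molecule of the immunoglobulin superfamily, and the labels give the strain as BALB/c. Per the study's methods, carriers of the allele were bred with BALB/cCrSlc mice. The mutation is present in every cell of the animal and throughout development, the study used both sexes, and the labels give no sex for a library. Expression was given as TPM, a transcript abundance relative to the total of the library that also corrects for transcript length, so that levels can be compared between genes.

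GABA is made from glutamate by glutamic acid decarboxylase, which exists as a constitutively active form spread through the cell body and terminals (GAD67, from *Gad1*) and a form concentrated at nerve terminals and regulated by its cofactor pyridoxal phosphate (GAD65, from *Gad2*). The vesicular transporter vGAT (*Slc32a1*) loads GABA, and also glycine, into synaptic vesicles. After release, GABA is taken up by plasma membrane carriers, among them GAT-3 (*Slc6a11*), which is found mainly on astrocytes. GABA transaminase (*Abat*) and succinic semialdehyde dehydrogenase (*Aldh5a1*) then turn it in mitochondria into succinate. In the cerebellum the GABAergic neurons are the Purkinje cells, the stellate and basket cells of the molecular layer, the Golgi cells and some neurons of the deep nuclei, while granule cells and the afferent climbing fibres release glutamate.

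In the mouse genome (GRCm38), *Gad1* lies on chromosome 2 at 70553072 to 70602014, *Gad2* on chromosome 2 at 22622205 to 22693874 and *Slc32a1* on chromosome 2 at 158610767 to 158615748, all on the plus strand. *Slc6a11* occupies 114131241 to 114249952 on the plus strand of chromosome 6, *Abat* 8513429 to 8621568 on the plus strand of chromosome 16, and *Aldh5a1* 24907579 to 24937661 on the minus strand of chromosome 13. *Abat* shares chromosome 16 with *Dscam*, which lies at 96590840 to 97170752 on the minus strand. *Gad1*, *Slc32a1*, *Slc6a11* and *Aldh5a1* each overlap an annotated gene on the other strand, and whether the quantification used strand is not given in the sources used here.

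The stretches directly upstream of *Gad1*, *Gad2* and *Slc6a11* are shown because these are the 3 genes whose mean levels differed most between the genotypes. They are RefSeq sequence of GRCm38.p6, written 5′ to 3′ on the plus strand, and they end 1 base before the first start that RefSeq or GENCODE gives for the main transcript, so that none of that transcript is included. The *Gad1* stretch lies in an intron of another annotated *Gad1* transcript, and also in an intron of *Gad1os* on the other strand. The reference is C57BL/6J, not BALB/c. Capitals mark the E-box letters CANNTG, the sequence class that basic helix-loop-helix factors bind. The positions are chr2:70561879-70562041 for *Gad1*, chr2:22622077-22622204 for *Gad2* and chr6:114130991-114131240 for *Slc6a11*.
Gad1: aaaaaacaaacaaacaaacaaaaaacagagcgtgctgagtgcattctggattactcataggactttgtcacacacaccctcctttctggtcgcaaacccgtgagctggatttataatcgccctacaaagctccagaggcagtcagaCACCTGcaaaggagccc
Gad2: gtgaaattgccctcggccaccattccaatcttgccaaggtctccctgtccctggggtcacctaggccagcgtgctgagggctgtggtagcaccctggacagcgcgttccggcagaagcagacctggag
Slc6a11: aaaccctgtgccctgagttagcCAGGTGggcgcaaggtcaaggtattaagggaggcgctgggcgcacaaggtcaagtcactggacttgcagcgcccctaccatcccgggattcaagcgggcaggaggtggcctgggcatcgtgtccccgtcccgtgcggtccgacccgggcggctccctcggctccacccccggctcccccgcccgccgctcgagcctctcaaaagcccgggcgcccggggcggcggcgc
The *Gad1* stretch of 163 bases holds 1 E-box, CACCTG, 11 bases before its end, and the *Slc6a11* stretch of 250 bases holds 1, CAGGTG, 222 bases before its end. The 128 bases upstream of *Gad2* hold none. An E-box is common: 72.3% of the 32851 RefSeq windows of the same kind, 250 bases before to 50 bases after each start, hold at least 1, with a median of 1. Windows of that length were matched for 5 of the 6 genes, and each of the 5 held an E-box, *Slc32a1* 2 of them. The letters TATAAA, on either strand, stood in the *Gad1* window alone among the 5 (13.6% of all windows). GGGCGG, a GC-box on either strand, stood 4 times in the *Slc6a11* window and once in that of *Gad1* (35.7% of all windows hold it). The 5 windows were rich in C and G, from 60.0% for *Gad1* to 72.3% for *Slc6a11*, against a median of 52.7% over all windows.

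The listed TPM values summed to 775148 to 805869 in DscamKO libraries and 684771 to 838532 in Control libraries, and read totals were not in the tables used, so the counting error of each value is unknown. Genes with at least 0.5 TPM numbered 17130 to 17539 per DscamKO library and 15623 to 17763 per Control library, the lowest in Control 5. Control 3 and Control 5 stood apart, with summed mRNAs of the mitochondrial genome at 23124 and 15206 TPM, while the other 8 libraries held 32199 to 44973 TPM. *Dscam* was lower in every mutant, at 3.05 to 5.42 TPM in DscamKO against 6.29 to 9.05 TPM in Control cerebella. No library went against its genotype label. TPM is a value for the whole gene and does not show the deleted bases themselves. The *Dscam* difference gave a log2 fold change of −0.82 (exact two-sided permutation test, p = 0.00794, the smallest that 5 against 5 libraries allow, and limma adjusted p = 0.779).

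The 6 genes fell into an abundant set of 3 and a low set of 3. *Gad1* was the most abundant, with a mean of 238 TPM over the 10 libraries, place 423 among the 13547 protein-coding genes tested. *Slc32a1* followed at 128 TPM (place 861) and *Abat* at 116 TPM (place 986). *Aldh5a1*, *Gad2* and *Slc6a11* were lower and close together, at 23.7, 21.1 and 19.8 TPM (places 5231, 5679 and 5890). *Gad1* exceeded *Slc32a1* in 10 of 10 libraries and *Abat* exceeded *Aldh5a1* in 10 of 10. The other neighbours in this order changed places between animals: *Slc32a1* was above *Abat* in 4 DscamKO and 3 Control libraries, *Aldh5a1* above *Gad2* in 2 DscamKO and 5 Control libraries, and *Gad2* above *Slc6a11* in 4 DscamKO and 2 Control libraries.

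**Figure D1:**
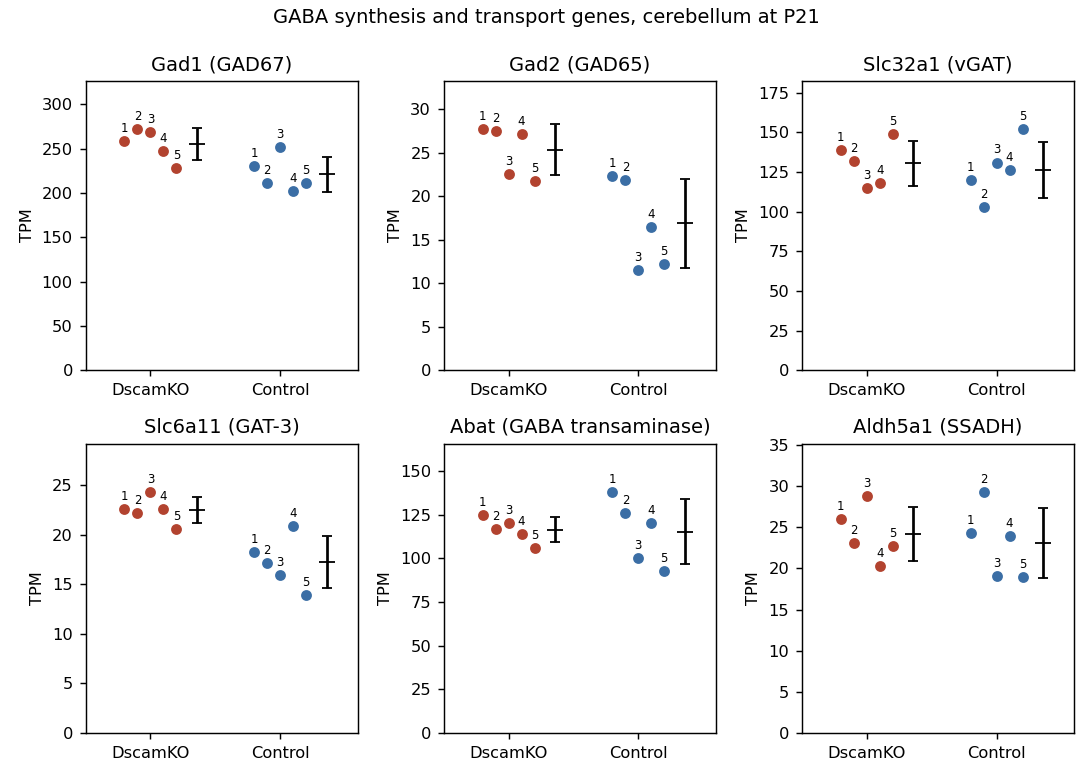
TPM of the 6 genes (one panel each, TPM axis) in 5 DscamKO and 5 Control cerebella at postnatal day 21. Points are single mice, numbered by replicate, beside the group mean and SD. For *Gad2*, 4 of the 5 DscamKO libraries lie above the highest Control library, and for *Slc32a1*, *Abat* and *Aldh5a1* the groups overlap over most of their range.

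Both synthesis genes had higher mean levels in the mutants, *Gad2* by more in proportion, and neither passed the adjusted test. *Gad2* measured 27.7, 27.5, 22.5, 27.2 and 21.8 TPM in DscamKO mice 1 to 5, against 22.3, 21.9, 11.5, 16.5 and 12.2 TPM in Control mice 1 to 5. Of the mutants, 4 lay above the highest control, and 3 controls lay below the lowest mutant, so the groups overlapped only between 21.8 and 22.3 TPM. The means were 25.3 ± 2.92 TPM in DscamKO and 16.9 ± 5.12 TPM in Control (SD, n = 5 each). The log2 fold change was 0.63, 95% interval 0.18 to 1.08, a fold of 1.55. The limma unadjusted p was 0.0104 and the adjusted p over all 17168 genes was 0.779, while the exact two-sided permutation test of *Gad2* alone gave p = 0.0238. In whole cerebellum, fewer cells of a type and less RNA per cell cannot be told apart, and the same holds for more. Markers of brainstem and midbrain, tissue that could be carried along when a cerebellum is taken, also had higher means in DscamKO. Of 19 such markers 8 could be tested, and 6 of the 8 had positive log2 fold changes, with a median over the 8 of 0.94. Among the 6, 3 were under an unadjusted limma p of 0.05. Over all genes 56.0% were positive, and 2.29% were under 0.05 with the higher mean in DscamKO. The smallest p of the 3 was that of *Dbh*, at 0.685 to 1.45 TPM in DscamKO and 0 to 0.458 TPM in Control. *Dbh* thus reached the 0.5 TPM of the filter in DscamKO libraries only. The summed level of the 19 was 26.6 to 39.5 TPM in DscamKO (median 38.6) and 19.1 to 38 TPM in Control (median 25.8). *Otx2*, the most abundant of the 8, had means of 14.8 TPM in DscamKO and 14.3 TPM in Control. The defining hindbrain genes *Phox2a*, *Hoxa5*, *Hoxb5* and *Hoxb8* were listed at 0 in every library, and the part of such tissue in the *Gad2* difference was not tested.

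*Gad1* differed less. Its levels were 259, 272, 269, 247 and 228 TPM in DscamKO mice 1 to 5 and 230, 211, 252, 202 and 211 TPM in Control mice 1 to 5. Of the mutants, 3 lay above the highest control, Control 3, and 3 controls lay below the lowest mutant, so the groups overlapped between 228 and 252 TPM. The means of 255 ± 18.0 TPM in DscamKO and 221 ± 20.1 TPM in Control (SD, n = 5 each) gave a fold of 1.15, a log2 fold change of 0.21 with 95% interval 0.02 to 0.40. The limma unadjusted p was 0.0371 and the adjusted p 0.779, and the exact two-sided permutation test gave p = 0.0397.

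*Slc32a1*, the vesicular transporter, was at like levels in both genotypes. It measured 139, 132, 115, 118 and 149 TPM in DscamKO mice 1 to 5 and 120, 103, 131, 126 and 152 TPM in Control mice 1 to 5, so the highest value and the lowest value both belonged to controls. The means were 131 ± 14.5 TPM in DscamKO and 126 ± 17.6 TPM in Control (SD, n = 5 each). The log2 fold change was 0.05, and its 95% interval, −0.20 to 0.31, leaves room for a change of either sign (limma adjusted p = 0.923, exact permutation p = 0.69).

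*Slc6a11*, the glial uptake carrier, showed the least spread among the mutants. It measured 22.6, 22.2, 24.3, 22.6 and 20.6 TPM in DscamKO mice 1 to 5, against 18.2, 17.1, 15.9, 20.9 and 13.9 TPM in Control mice 1 to 5. Only Control 4, at 20.9 TPM, reached into the range of the mutants, where it stood just above DscamKO 5. The means were 22.4 ± 1.3 TPM in DscamKO and 17.2 ± 2.60 TPM in Control (SD, n = 5 each), a fold of 1.31. The log2 fold change was 0.39 with 95% interval 0.09 to 0.69 (limma unadjusted p = 0.015, adjusted p = 0.779, exact permutation p = 0.0159). Markers of Bergmann glia and astrocytes, the cells that use this carrier, did not move one way, since 7 of 14 had a positive and 7 a negative log2 fold change and their median was 0.01. Their summed level was 3330 to 3570 TPM in DscamKO and 3060 to 3960 TPM in Control.

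The breakdown genes had nearly the same mean in both genotypes. *Abat* measured 125, 117, 120, 114 and 106 TPM in DscamKO mice 1 to 5 and 138, 126, 100, 120 and 92.5 TPM in Control mice 1 to 5, and every mutant lay inside the range of the controls. Its means were 116 ± 6.92 TPM in DscamKO and 115 ± 18.6 TPM in Control (SD, n = 5 each), a log2 fold change of 0.03 with 95% interval −0.23 to 0.28 (limma adjusted p = 0.959, exact permutation p = 0.905). *Aldh5a1* measured 26.0, 23.1, 28.8, 20.3 and 22.7 TPM in DscamKO mice 1 to 5 and 24.3, 29.3, 19.1, 23.9 and 19.0 TPM in Control mice 1 to 5. These values interleaved over almost their whole range. The means of 24.2 ± 3.28 TPM in DscamKO and 23.1 ± 4.27 TPM in Control (SD, n = 5 each) gave a log2 fold change of 0.07 with 95% interval −0.27 to 0.41 (limma adjusted p = 0.92, exact permutation p = 0.683).

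**Figure D2:**
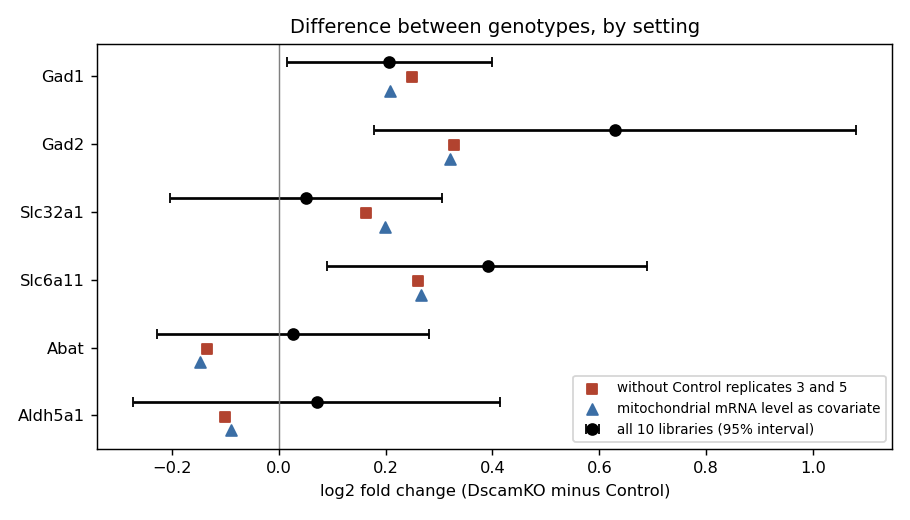
Log2 fold change of each of the 6 genes, DscamKO minus Control (horizontal axis, log2 units), with all 10 libraries (circles, 95% interval from limma), without Control replicates 3 and 5 (squares) and with mitochondrial mRNA in the model (triangles). With all libraries the unadjusted intervals of *Gad1*, *Gad2* and *Slc6a11* lie above 0, and the squares and triangles of *Abat* and *Aldh5a1* lie below 0.

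None of the 6 genes passed an adjusted p of 0.05, and neither did any of the 17168 genes tested (0%), though 4 genes passed in limma with no variance trend. By the limma p before adjustment, 3 of the 6 were under 0.05, all with the higher mean in DscamKO. Without Control 3 and Control 5 this held for *Gad1* alone (limma unadjusted p = 0.0173 and adjusted p = 0.822, with an unadjusted 0.0575 for *Gad2* and 0.0636 for *Slc6a11*), while *Gad1* was at 0.479 with library medians made equal and at 0.1 with no variance trend. Over all genes, 953 were under 0.05 (5.55%), 394 of them with the higher mean in DscamKO (2.29%) and 559 with the lower (3.26%). All 6 log2 fold changes were above 0, with a median of 0.14, and 56.0% of all genes were above 0, with a median of 0.05. Less the median of all genes, *Gad2* was 0.581, *Slc6a11* 0.342 and *Gad1* 0.158. By the same measure *Aldh5a1* was 0.022, *Slc32a1* 0.002 and *Abat* −0.022, so these lay at the level of all genes. In none of the 6 were the groups free of overlap. Over all genes this was so for 72 higher in DscamKO (0.419%) and for 137 lower in DscamKO (0.798%). The 6 genes varied less among the mutants than among the controls in every case, with coefficients of variation of 5.8% to 13.6% in DscamKO and 9.09% to 30.3% in Control, the widest for *Gad2*. Control 3 and Control 5 were the lowest controls for *Gad2*, *Slc6a11*, *Abat* and *Aldh5a1*.

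Ratios between the genes take the balance of the steps within each animal. There were 5 ratios, each compared on the log2 scale by an exact two-sided permutation test with adjustment over the 5, and none passed. *Gad1* over *Gad2* was 9.1 to 11.9 in DscamKO and 9.64 to 22.0 in Control, with means of 10.2 ± 1.13 in DscamKO and 14.3 ± 5.22 in Control (SD, n = 5 each, exact permutation p = 0.111, adjusted p = 0.251). The high controls were Control 3, at 22.0, and Control 5, at 17.2. Expressed as a share, *Gad2* gave 9.04% ± 0.865 of the summed TPM of both decarboxylase genes in DscamKO and 7.12% ± 2.16 in Control (SD, n = 5 each). Synthesis over breakdown, *Gad1* plus *Gad2* over *Abat*, was 2.3, 2.57, 2.44, 2.4 and 2.36 in DscamKO mice 1 to 5, against 1.83, 1.85, 2.64, 1.83 and 2.41 in Control mice 1 to 5. The mutants kept within a narrow band while the controls fell into a low set of 3 and a high pair, Control 3 and Control 5 again (means 2.41 ± 0.102 in DscamKO and 2.11 ± 0.384 in Control, exact permutation p = 0.151, adjusted p = 0.251). Without these controls the log2 difference of this ratio was 0.39, against 0.21 with them, and the adjusted p was 0.0893, with 5 against 3 libraries unable to give a raw p under 0.0179. Synthesis over loading, *Gad1* plus *Gad2* over *Slc32a1*, was 2.18 ± 0.328 in DscamKO and 1.92 ± 0.312 in Control (SD, n = 5 each, exact permutation p = 0.246, adjusted p = 0.308). *Abat* over *Aldh5a1*, the steps of breakdown, was 4.86 ± 0.539 in DscamKO and 5.01 ± 0.501 in Control (SD, n = 5 each, exact permutation p = 0.643, adjusted p = 0.643). GABA carrier over glutamate carrier in glia, *Slc6a11* over *Slc1a3* (GLAST), was 0.0506 ± 0.00277 in DscamKO and 0.0433 ± 0.0089 in Control (SD, n = 5 each, exact permutation p = 0.143, adjusted p = 0.251).

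**Figure D3:**
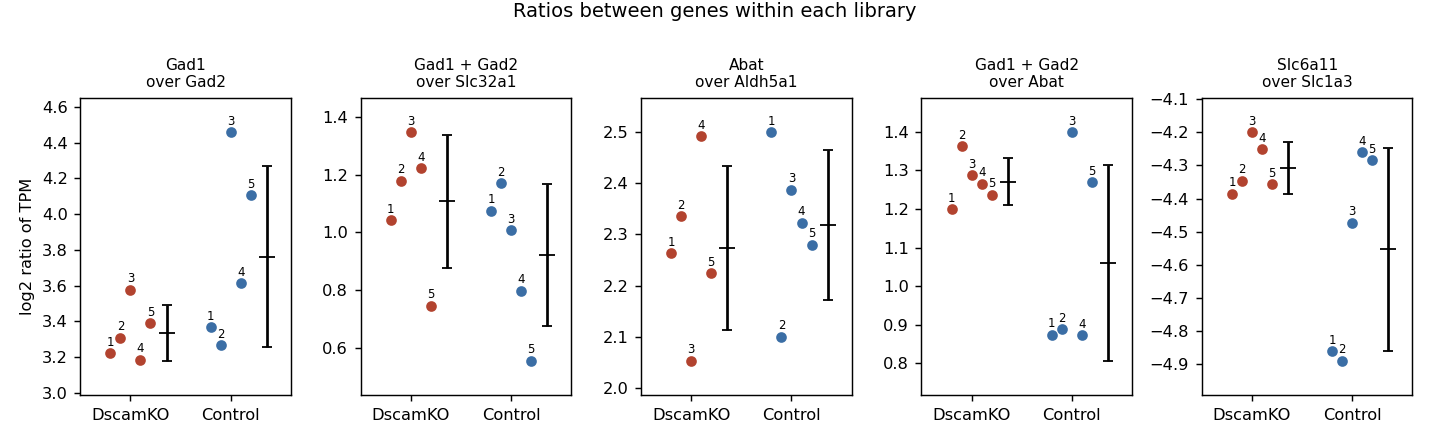
The 5 ratios on the log2 scale (vertical axes, not starting at 0) in 5 DscamKO and 5 Control cerebella, points being single mice with their replicate number, beside the group mean and SD. For *Gad1* plus *Gad2* over *Abat*, the 5 mutants lie close together while Controls 1, 2 and 4 lie apart below Controls 3 and 5.

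Control 3 and Control 5, the libraries low in mitochondrial mRNAs, were also at one end of the control values for most of the 6 genes. *Gad2* was 11.5 and 12.2 TPM in them, against 16.5 to 22.3 TPM in the other 3 controls, and *Slc6a11* was 15.9 and 13.9 TPM, against 17.1 to 20.9 TPM. *Abat*, at 100 and 92.5 TPM against 120 to 138 TPM, and *Aldh5a1*, at 19.1 and 19.0 TPM against 23.9 to 29.3 TPM, were low there too. *Slc32a1* ran the other way, at 131 and 152 TPM against 103 to 126 TPM, and *Gad1* was 252 and 211 TPM against 202 to 230 TPM. Without both libraries the log2 fold changes were 0.33 for *Gad2*, 0.26 for *Slc6a11*, 0.25 for *Gad1*, 0.16 for *Slc32a1*, −0.10 for *Aldh5a1* and −0.135 for *Abat*, with limma adjusted p of 0.822 to 0.924 and a median over all genes of −0.09. The *Gad2* value was thus smaller than with all controls, that of *Gad1* was somewhat larger, and the breakdown genes changed sign. The part of RNA quality in these values was not tested.

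The genes were correlated with the mean log2 level of the 13 mitochondrial mRNAs across the 10 libraries, after each genotype's mean was taken off. This mean weighs each mRNA alike, unlike their summed TPM. *Abat* (Pearson r = 0.94) and *Gad2* (0.88) followed it closely, *Slc6a11* (0.72) and *Aldh5a1* (0.67) less so, and *Slc32a1* ran against it (−0.78). *Gad1* was unrelated to it over the 10 libraries (−0.02). Without Control 3 and Control 5 the correlations over 8 libraries were 0.78 for *Gad2*, 0.69 for *Abat* and 0.51 for *Gad1*, and −0.61 for *Slc32a1*, but −0.27 for *Slc6a11* and 0.09 for *Aldh5a1*, so those of *Slc6a11* and *Aldh5a1* rested on the pair left out. These are descriptions over libraries that share their normalization to a fixed total, and no test is attached to them. Between the genes themselves, *Gad2* and *Abat* varied most alike over 10 libraries (0.90, with 0.67 over 8) and *Gad1* and *Abat* over 8 (0.85, with 0.06 over 10), while *Gad1* and *Gad2*, the pair of decarboxylases, were near unrelated over 10 libraries (−0.13) and moderately alike over 8 (0.56).

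**Figure D4:**
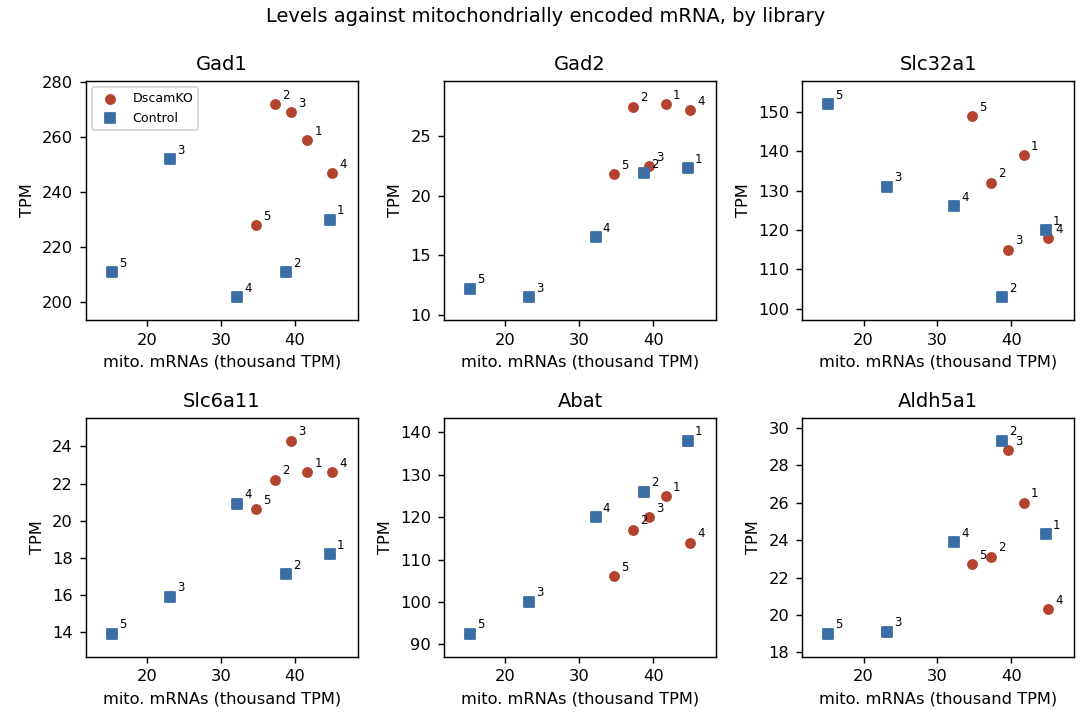
TPM of the 6 genes (vertical axes) against the summed TPM of the 13 mRNAs of the mitochondrial genome (horizontal axes, kTPM) in each library, DscamKO and Control marked apart. Control 3 and Control 5 lie at the left, at 23124 and 15206 TPM, and *Gad2* and *Abat* are low in them.

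For each gene, the 3 protein-coding genes whose within-genotype variation was most like it were sought among the 8338 that averaged 10 TPM or more. For *Gad2* these were *Cdkn1b* (r = 0.98), *Clvs1* (0.98) and *Atp1b1* (0.98), and for *Abat* they were *Usp7* (0.99), *Slc33a1* (0.99) and *Scamp1* (0.98). *Atp1b1* encodes a subunit of the sodium pump and *Usp7* a deubiquitinating enzyme. The nearest genes to *Slc32a1* were *Exoc3l* (0.97), *Hk1* (0.97), which encodes a hexokinase, and *Fam181b* (0.95). *Aldh5a1* was nearest to *Tspan5* (0.96), *Rab14* (0.95) and *Scaf11* (0.94), and *Slc6a11* to *Dop1b* (0.95), *Zfp639* (0.95) and *Gm17018* (0.94). *Gad1* had no neighbour as close, the nearest being *Gcc2* (0.91), *Kctd9* (0.88) and *Scmh1* (0.85). These are the best of many correlations over 10 libraries, and all but *Kctd9* and *Scmh1* stayed at 0.90 or above without Control 3 and Control 5.

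Beyond the 6 genes, 43 genes in 5 lists cover the other carriers, the supply of glutamate, the neighbours of the GABA shunt, the supply of pyridoxal phosphate, and the partners of vesicle loading. Of these, 40 could be tested. The log2 fold change was positive for 27 (67.5%) and negative for 13, its median was 0.11, and 0 passed the adjusted limma test. By the unadjusted limma p, 2 were under 0.05 with the higher mean and 2 with the lower mean in DscamKO. Over all genes tested, 56.0% were positive and 5.55% were under 0.05.

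The other carriers held the 2 log2 fold changes furthest from 0 on these lists. *Slc6a13* (GAT-2), a GABA and taurine carrier of the meninges and of the liver and kidney, measured 5.65, 8.15, 3.33, 7.11 and 4.89 TPM in DscamKO mice 1 to 5, against 12.7, 14.4, 9.95, 14.1 and 9.59 TPM in Control mice 1 to 5. Every mutant lay below every control. The means of 5.83 ± 1.88 TPM in DscamKO and 12.2 ± 2.28 TPM in Control (SD, n = 5 each) gave a log2 fold change of −1.09, 95% interval −1.66 to −0.53 (limma unadjusted p = 0.00127, adjusted p = 0.779, exact permutation p = 0.00794). *Slc6a12* (BGT-1), which carries betaine and GABA, was 1.92 ± 1.87 TPM in DscamKO and 3.94 ± 1.59 TPM in Control, with overlap, since DscamKO 4 was at 5.21 TPM (log2 fold change −1.28, limma adjusted p = 0.779, exact permutation p = 0.0952). The taurine carrier *Slc6a6* was 28.2 ± 5.47 TPM in DscamKO and 28.9 ± 2.36 TPM in Control (SD, n = 5 each). Markers of choroid plexus and meninges, one of which is *Slc6a13* itself, had a negative log2 fold change in 6 of 10 cases, with a median of −0.13 and a summed level of 3000 to 5230 TPM in DscamKO and 3920 to 5720 TPM in Control. The share of meningeal tissue in the *Slc6a13* difference was not tested.

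Among the 12 genes that supply glutamine and glutamate, 8 had the higher mean of logs in DscamKO and 4 the lower, with a median difference of 0.09. *Glul*, the glutamine synthetase of astrocytes and Bergmann glia, measured 575, 417, 428, 466 and 447 TPM in DscamKO mice 1 to 5, against 381, 445, 256, 316 and 318 TPM in Control mice 1 to 5. Only Control 2 reached the range of the mutants. The means were 466 ± 63.2 TPM in DscamKO and 343 ± 72.3 TPM in Control (SD, n = 5 each), a log2 fold change of 0.46 (limma unadjusted p = 0.00862, adjusted p = 0.779, exact permutation p = 0.0238). The glutamine carriers differed in sign, with *Slc38a1*, a neuronal importer, at 86.6 ± 7.32 TPM in DscamKO and 73.8 ± 11.6 TPM in Control, and *Slc38a3*, a glial exporter, at 54.3 ± 7.82 TPM in DscamKO and 65.0 ± 8.49 TPM in Control (SD, n = 5 each). Neither was past the test. *Slc1a3*, the glial glutamate carrier GLAST, was 444 ± 19.9 TPM in DscamKO and 413 ± 108 TPM in Control (SD, n = 5 each, limma adjusted p = 0.834).

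Of the 10 shunt neighbours tested, 7 were positive and 3 negative in log2 fold change, and none was under an unadjusted limma p of 0.05. *Akr7a5*, an enzyme that reduces succinic semialdehyde, was 46.1 ± 6.57 TPM in DscamKO and 54.0 ± 6.6 TPM in Control, and *Sucla2*, a subunit of succinyl-CoA ligase in the citric acid cycle, was 91.1 ± 7.44 TPM in DscamKO and 72.9 ± 27.9 TPM in Control (SD, n = 5 each). *Adhfe1*, an enzyme that oxidises gamma-hydroxybutyrate, was 2.13 ± 0.789 TPM in DscamKO and 1.26 ± 0.259 TPM in Control (SD, n = 5 each, limma unadjusted p = 0.0896, adjusted p = 0.779, exact permutation p = 0.0317). The groups of *Adhfe1* overlapped, at 1.24 to 3.31 TPM in DscamKO and 1.04 to 1.64 TPM in Control. *Pdxk*, a kinase that acts on the vitamin precursors of the cofactor of both decarboxylases, was 47.3 ± 4.66 TPM in DscamKO and 40.4 ± 4.2 TPM in Control (SD, n = 5 each, limma unadjusted p = 0.0674, adjusted p = 0.779, exact permutation p = 0.0476). Of the vesicle partners, 8 of 10 had a log2 fold change above 0. *Vamp1*, a vesicle fusion protein, measured 180, 177, 162, 169 and 153 TPM in DscamKO mice 1 to 5, against 152, 136, 150, 142 and 124 TPM in Control mice 1 to 5. Every mutant lay above every control, though by as little as 153 against 152 TPM (log2 fold change 0.26, limma unadjusted p = 0.0114, adjusted p = 0.779, exact permutation p = 0.00794). *Hspa8*, a chaperone that binds vesicle proteins, was 672 ± 48.8 TPM in DscamKO and 519 ± 183 TPM in Control, and *Sv2c*, a vesicle glycoprotein, was 20.6 ± 2.81 TPM in DscamKO and 15.2 ± 6.38 TPM in Control (SD, n = 5 each, limma adjusted p = 0.779 for both). The log2 fold change of *Hspa8* was 0.447 with all libraries and 0.101 without Control 3 and Control 5. That of *Sv2c* was 0.526, and as low as 0.14 under the other settings.

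**Figure D5:**
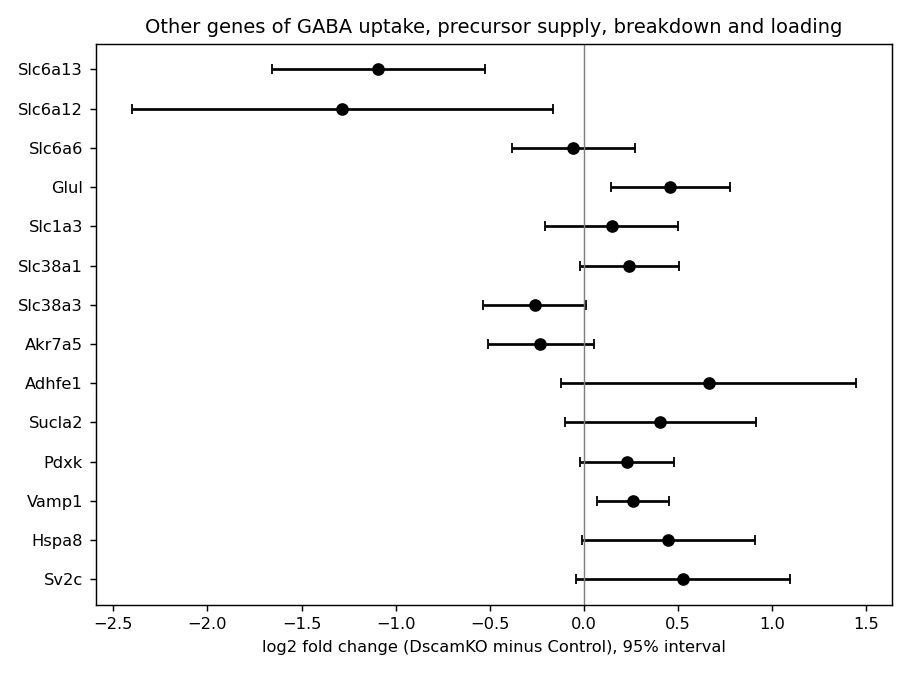
Log2 fold change, DscamKO minus Control (horizontal axis, log2 units), with its 95% interval from limma before adjustment, for 14 genes around the 6 GABA genes, one row each. *Slc6a13*, at −1.09, and *Slc6a12*, at −1.28, lie furthest left, and no gene passed the adjusted test.

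Marker genes of the cells that hold the GABA genes gave the following levels, and their part in the differences above was not tested. The 12 Purkinje cell markers, 9 above 0 and 3 below with a median log2 fold change of 0.12, summed to 5300 to 6360 TPM in DscamKO and 5320 to 6010 TPM in Control. Of the 12 molecular layer interneuron markers 10 could be tested, 7 above 0 and 3 below with a median of 0.11. All 12 summed to 1770 to 2000 TPM in DscamKO and 1350 to 1980 TPM in Control. Of the 10 Golgi and Purkinje layer interneuron markers 9 could be tested, 6 above 0 and 3 below with a median of 0.18. All 10 summed to 134 to 164 TPM in DscamKO and 127 to 160 TPM in Control. In each of these 3 lists Control 3 and Control 5 were the lowest controls by mean log2 level of the tested genes. They stood at 7.81 and 7.65 for Purkinje cells, 4.75 and 4.67 for the molecular layer and 3.25 and 3.33 for Golgi cells. The other controls stood at 7.93 to 8.08, 4.90 to 5.15 and 3.34 to 3.62, the mutants at 7.87 to 8.13, 4.90 to 5.15 and 3.30 to 3.65. The 3 lists of Purkinje cells and interneurons had medians above the 0.05 of all genes with all 10 libraries. The 12 granule cell markers lay mostly on the other side, 10 of them below 0 with a median of −0.15. Their mean log2 level was 8.28 in Control 3 and 8.26 in Control 5, within the 8.19 to 8.36 of the mutants. The other controls stood at 8.42 to 8.57. The 12 oligodendrocyte markers were all above 0 with a median of 0.44, summing to 7470 to 8800 TPM in DscamKO and 5830 to 8480 TPM in Control. Their mean log2 level was 6.37 in Control 5, 7.27 to 7.53 in the other controls and 7.32 to 7.75 in the mutants. In TPM a higher share for one class of cells lowers the share of the others.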

How the data were processed

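RNA sequencing libraries were made from whole cerebella, 1 per mouse, with a directional kit. The authors trimmed reads with Trimmomatic 0.36, aligned them with HISAT2 2.2.0 and computed TPM with StringTie 1.3.6, on build GRCm38.p5 per the labels. The deposited TPM values are relative to a fixed total, so a gene's value depends on all others. Count tables were not used here. Log2(TPM + 0.1) values of genes with at least 0.5 TPM in at least 5 of the 10 libraries were compared with limma 3.58.1 (trend, R 4.3.3), with Benjamini-Hochberg adjustment over all 17168 genes, and fold changes are on that scale, which understates low genes. Exact two-sided permutation tests ran on TPM over the 5 against 5 libraries. The analysis was tested on simulated data.

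The members and lists were chosen with earlier results of these data known. Genes named were the 6 members, *Dscam*, in each list the 3 with the smallest unadjusted p and the 2 with the highest mean TPM, and 3 neighbours per member. Genes given from these lists in the text are those of this set whose role is sure. Of the list genes, 2 are not reported by name here. Replicate numbers were not treated as pairs in the main fit. Alternatives varied the amount added, the filter, the scaling, the variance model, a replicate block, a mitochondrial covariate and the libraries left out. No pair of libraries was a duplicate, so all 10 were kept.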

Additional observations from a re-analysis of the deposited data

Results flagged for a closer look

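4 sums of a list stood apart within their group of 5 by Dixon's test at the 95% level, of 52 groups checked, where chance gives about 2.6. The summed TPM of the glutamine and glutamate supply genes was 1930 in DscamKO 1, while the next mutant was at 1690. The summed GABA shunt neighbours were 385 TPM in DscamKO 5, below the next mutant at 415. The brainstem and midbrain markers summed to 26.6 TPM in DscamKO 5, below the next mutant at 36.1. The Purkinje cell markers summed to 6010 TPM in Control 1, above the next control at 5450. None of the 6 GABA genes stood apart in this way in either group.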

How the results depend on the processing

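*Gad1*, *Gad2* and *Slc6a11* kept a positive log2 fold change under all 22 alternatives (0.11 to 0.26 for *Gad1*, 0.32 to 0.74 for *Gad2* and 0.26 to 0.46 for *Slc6a11*), and of 132 member values 121 kept their sign. With no variance trend 4 genes of the whole table passed the adjusted test, 1 higher and 3 lower, against 0 with the trend, and leaving out each library in turn gave 0 to 1, the 1 being without DscamKO replicate 4. With library medians set equal, which moved the median of all genes to −0.05, the values were −0.072 for *Abat*, −0.028 for *Aldh5a1* and −0.048 for *Slc32a1*. With the mitochondrial covariate they were −0.147 for *Abat*, −0.089 for *Aldh5a1*, −0.137 for *Slc1a3*, −0.037 for *Slc6a5* and −0.012 for *Sucla2*. Without Controls 3 and 5 they were −0.135 for *Abat*, −0.101 for *Aldh5a1* and −0.10 for *Slc1a3*, and with array weights *Abat* was −0.037. Leaving out each library in turn gave −0.048 to 0.095 for *Abat*, −0.019 to 0.119 for *Slc32a1*, −0.142 to 0.051 for *Slc6a6* and −0.099 to 0.011 for the *Abat* to *Aldh5a1* ratio. The median of all genes moved as well, from 0.049 to −0.108 with the covariate, −0.094 without Controls 3 and 5 and −0.031 with array weights. Less that median, *Abat* was −0.04, −0.041 and −0.007 in these settings, against −0.022 in the main fit. *Aldh5a1* less the median was 0.019, −0.007 and 0.056, against 0.022 in the main fit. The cause of the changes of sign was not tested. *Slc6a12* could not be fitted at a minimum of 1 TPM in all libraries. After each genotype's mean was taken off, same-numbered libraries had correlations of 0.008 to 0.098. Of the 5 mutant libraries, 2 were most like the control of their own number. Such values cannot show whether the animals were paired. The fit with a replicate block gave *Gad2* 0.63 (limma adjusted p = 0.717) and 0 genes. It changed no call. Read totals were not in the tables used, so the part of depth in these values was not tested.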

Other observations

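Among GABAergic lineage transcription factors, *Lhx1*, which Purkinje cells keep into adult life, was 37.2 ± 1.79 TPM in DscamKO and 33.4 ± 3.52 TPM in Control, and *Pax2*, a marker of young interneurons, was 3.18 ± 0.599 TPM in DscamKO and 4.56 ± 2.04 TPM in Control (SD, n = 5 each). *Ptf1a* and *Neurog1*, which act in GABAergic progenitors, were listed at 0. Genes listed as Golgi and Purkinje layer interneuron markers differed in sign, 6 above 0 and 3 below. *Lgi2* was 33.0 ± 2.59 TPM in DscamKO and 25.9 ± 5.66 TPM in Control (SD, n = 5 each). *Nos1* was 12.9 ± 1.23 TPM in DscamKO and 19.9 ± 6.12 TPM in Control (SD, n = 5 each). Which cells gave the *Nos1* RNA was not tested. *Slc6a5*, the glycine carrier of Golgi cells and other glycinergic neurons, was 9.13 ± 3.03 TPM in DscamKO and 6.53 ± 2.88 TPM in Control. *Pvalb*, of Purkinje cells and molecular layer interneurons, was 1650 ± 84.2 TPM in DscamKO and 1410 ± 209 TPM in Control (SD, n = 5 each). In the glia, *Hopx* was 94.6 ± 12.2 TPM in DscamKO and 132 ± 15.9 TPM in Control, and *Ndrg2* was 438 ± 33.7 TPM in DscamKO and 606 ± 172 TPM in Control (SD, n = 5 each). These 2 do not stand for their list, since 7 of the 14 glial markers had a positive and 7 a negative log2 fold change. None of these passed the limma adjusted test.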
